A study of Mus musculus with 12 samples.

Results

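Expression of 9 genes of the Hedgehog pathway was followed in neural stem cells (NSCs) cultured from the adult mouse subventricular zone, the germinal layer beside the lateral ventricle. They are the receptor gene Ptch1, the co-receptor genes Boc and Cdon, the ligand-binding inhibitor gene Hhip, the signal transducer gene Smo, the Gli inhibitor gene Sufu and the transcription factor genes Gli1, Gli2 and Gli3. These 9 were chosen by symbol from the 43432 genes in the tables. The cells came from C57BL/6 wild-type male mice aged 6 to 8 weeks and were grown for 4 days in medium with EGF and bFGF and with 1.5 µM (LF, low folate), 10 µM (MF, medium folate) or 80 µM (HF, high folate) folic acid. All groups shared the strain, genotype, growth factors and time. The differences that the sources name are folic acid and the RNA fraction taken, with its preparation. Each concentration gave 2 biological replicates of total mRNA and 2 of polysome mRNA, which made 12 libraries in 6 groups. Polysome mRNA is the mRNA from sucrose gradient fractions in which more than 3 ribosomes sit on an mRNA, after cycloheximide had halted the ribosomes. The sources do not say that replicates came from separate animals or cultures, so p-values measure only the spread between these libraries.

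In Hedgehog signaling, Ptch1 keeps Smo inactive at the primary cilium until a secreted ligand (Sonic, Indian or Desert hedgehog) binds Ptch1. Smo then releases Gli2 and Gli3 from Sufu and from phosphorylation that turns them into repressors, and the activator forms of Gli induce Gli1, Ptch1 and Hhip, so that the transcripts of these genes are commonly used as readouts of the pathway. Boc and Cdon hold the ligand at the cell surface and help Ptch1 bind it, whereas Hhip sequesters it. In the adult subventricular zone Hedgehog signaling is known for maintaining stem cells and for the identity of ventral ones.

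Ptch1 was the member whose total mRNA changed, so the sequence before its start in RefSeq (GRCm38.p6) is shown, with each CG dinucleotide in capitals. The window holds the 250 bases upstream of that start, at chr13:63565736-63565985 on the minus strand.
Ptch1: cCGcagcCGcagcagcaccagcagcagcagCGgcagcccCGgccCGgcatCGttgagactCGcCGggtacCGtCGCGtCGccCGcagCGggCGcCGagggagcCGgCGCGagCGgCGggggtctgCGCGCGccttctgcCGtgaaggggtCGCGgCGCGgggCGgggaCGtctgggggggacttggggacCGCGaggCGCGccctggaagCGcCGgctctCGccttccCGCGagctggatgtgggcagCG
Those 250 bases held 41 CG dinucleotides. In the longer RefSeq window of 300 bases, from 250 before to 50 after the start, Ptch1 had 47 CG dinucleotides, and 98.6% of the 32851 promoters in the table had fewer. This start lies 7863 bases inside the gene from the outermost start in GENCODE, so it is one of several. Of the 9 members, 7 had an entry. Their CG counts were 39 for Gli3, 30 for Hhip, 28 for Gli2, 17 for Smo, 12 for Sufu and 3 for Cdon, against a median of 7 over all promoters. The Cdon entry lies 30948 bases inside its gene. The Gli binding sequence GACCACCCA, searched on both strands, was in none of the 7 windows and in 0.253% of all promoters. These letters were searched in 300 bases only.

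In mm10 the receptor and co-receptor genes lie at chr13:63508328-63573598 (Ptch1, minus strand), chr16:44485049-44558897 (Boc, minus) and chr9:35421128-35507652 (Cdon, plus), and Hhip at chr8:79965851-80058006 (minus). Smo lies at chr6:29735503-29761365 (plus) and Sufu at chr19:46396896-46488804 (plus). The Gli genes lie at chr10:127329882-127341974 (Gli1, minus), chr1:118834132-119053619 (Gli2, minus) and chr13:15463235-15730026 (Gli3, plus). All 9 are protein-coding, and the counts are of whole genes.

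The members spanned a wide range of abundance. TPM, an abundance which is divided by transcript length, was used to compare genes with each other. In total mRNA, Smo was highest with 113 ± 3.47 TPM (SD, n = 6), between 106.22 and 115.21. Ptch1 followed with 82.2 ± 11.5 TPM and values from 65.88 to 96.05, below every Smo value. Cdon had 44.4 ± 3.52 TPM and Sufu 28.8 ± 1.38 TPM, and neither overlapped its neighbours in the order. Gli2 with 17.7 ± 2.23 TPM and Gli3 with 16.3 ± 0.524 TPM overlapped. Their order turned under CPM (counts scaled to library size) per kilobase, on which Gli3 had 9.58 and Gli2 9.17. Gli1 stood at 6.91 ± 0.893 TPM, so the gene that reports pathway activity was the scarcest Gli factor in each total library. Boc was lower still with 2.35 ± 0.26 TPM, and in total mRNA its TPM was between 0.0469 and 0.0677 of that of its relative Cdon. Hhip had 1 to 5 counts in a total library and 2 to 13 in a polysome library, and it did not pass the filter on low counts. No comparison is given for Hhip, which leaves 8 of 9 members tested.

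In polysome mRNA Smo and Ptch1 again led and Boc and Hhip again came last, while Sufu and Cdon changed places. Smo had 90.5 ± 23.6 TPM and Ptch1 82.6 ± 19.6 TPM (SD, n = 6), and these ranges overlapped. Sufu (14.4 ± 4.68 TPM) and Cdon (14.3 ± 1.54 TPM) overlapped, as did Gli2 (8.22 ± 1.65 TPM) and Gli3 (7.89 ± 1.25 TPM). Gli1 had 5.95 ± 1.8 TPM, Boc 1.64 ± 0.481 TPM and Hhip 0.147 ± 0.125 TPM. TPM also moves with the effective length that RSEM estimated from the mix of transcripts. This length varied 1.45-fold between libraries for Gli2, 1.17-fold for Sufu, 1.14-fold for Cdon and 1.12-fold for Ptch1, so values compared between concentrations are given in CPM scaled by TMM, here and for the other genes and marker sums, and TPM is kept for comparing genes.

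**Figure D1:**
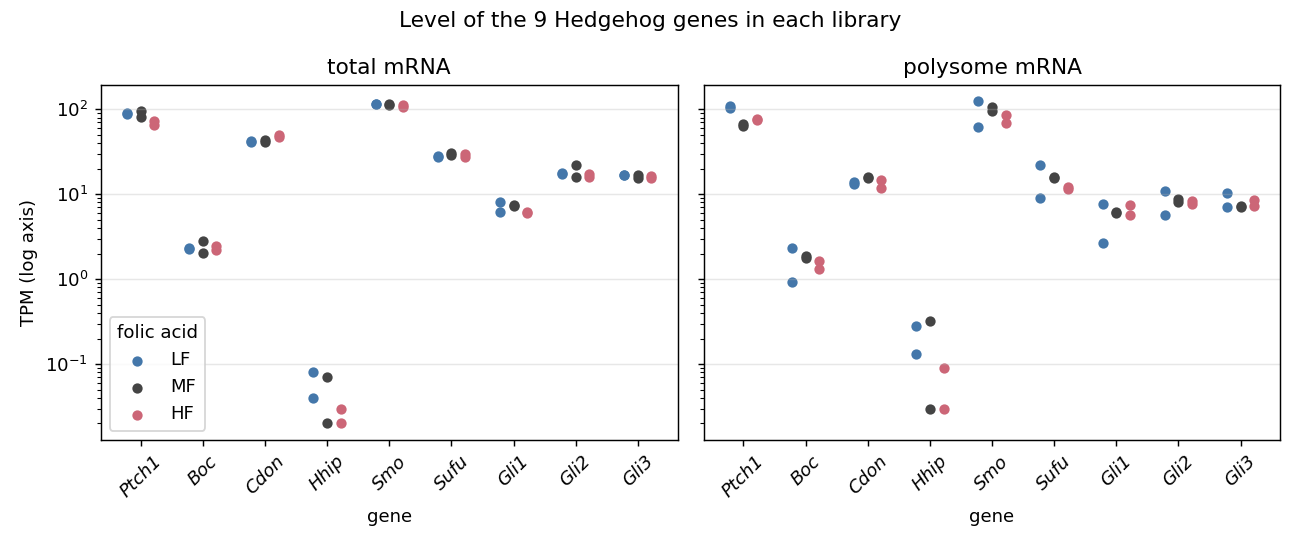
Level of each of the 9 Hedgehog genes in TPM on a log axis, in total mRNA (left) and polysome mRNA (right). Each point is a library, coloured by folic acid group, 2 per group. Smo and Ptch1 lie near 100 TPM and Hhip lies below 1 TPM in both fractions, and the 2 LF libraries of polysome mRNA are far apart for Smo, Boc, Sufu and Gli1.

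The libraries held 20506797 to 23593252 counts in total mRNA and 24193468 to 28170296 in polysome mRNA, of which 18482 to 26003 per library fell on the members. The scarcest tested member, Boc, had 66 to 168 counts, and the counting error alone is therefore larger for it than for Ptch1 with 5950 to 12753. Of 13 NSC and astroglia markers, 1 stayed under 1 CPM in all total libraries. Of 9 microglia markers Cx3cr1, Aif1, C1qa, C1qb and Ptprc were at 0 in all total libraries. Tmem119 had a mean of 5.06 CPM there and P2ry12 one of 2.41 CPM. Of 8 endothelial markers only Cldn5 was at 0, and Flt1 was highest with a mean of 1.77 CPM. Mesenchymal and mural markers had a sum of 778.2 to 1214.4 CPM in total mRNA, of which Col1a2 alone had a mean of 814 CPM. Of these 17 markers, 5 stayed under 1 CPM in all total libraries, namely Rgs5, Kcnj8, Abcc9, Des and Postn. Col1a1 had a mean of 2.1 CPM. Polysome LF replicate 2 stood apart, at 83.5 on the first principal component against -35.1 to -2.85 in the other polysome libraries. It also differed from polysome LF replicate 1 in the members, being 2.74-fold lower for Gli1, 2.43-fold lower for Boc, 2.35-fold lower for Sufu and 1.94-fold lower for Smo, and 1.52-fold higher for Gli3. Ptch1 and Cdon differed by less than 1.1-fold between the same pair.

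The question of total mRNA was whether folic acid changed how much of each transcript the cells held. The receptor gene Ptch1 was lower at HF than at both other concentrations, and no other member passed the test. Ptch1 had 362.98 and 373.64 CPM at LF, 334.82 and 358.98 CPM at MF, and 272.37 and 288.39 CPM at HF. No value of one group lay within another group's range, and the order ran from LF to MF to HF. At HF against MF, Ptch1 fell by 0.31 ± 0.048 on the log2 scale (SE, 2 libraries against 2), which is 1.24-fold lower, with an edgeR adjusted p of 0.0135. Against LF it was 1.31-fold lower (log2 change -0.39 ± 0.048, edgeR adjusted p = 0.000357). The log2 change at LF against MF was 0.09 ± 0.048, with an edgeR adjusted p of 0.819. Calls required a fold change larger than 1.2 together with an adjusted p below 0.05. At HF against MF, Ptch1 was 1 of 8 members called, against 0.0863% of all 13912 genes tested. The study had already reported lower Ptch1 mRNA at HF than at MF in these libraries. It also stated that RT-qPCR bore out its differentially expressed genes. The members were chosen with earlier results known. The share is therefore no evidence about Hedgehog genes as a set. In the comparison of HF with LF, Ptch1 was again 1 of 8, against 1.79% of all genes. At LF against MF 0 of 8 members were called, against 0.00719%. In that comparison 0 members had an unadjusted p under 0.05 in edgeR, against 872 of all genes tested. DESeq2 and limma voom also called 0 members there. With total MF replicate 1, total MF replicate 2 or total HF replicate 1 left out, Ptch1 at HF against MF was no longer called, with edgeR adjusted p of 0.0803, 0.562 and 0.275 and log2 changes of -0.36, -0.26 and -0.27. Against LF, Ptch1 at HF was called whichever total library was left out.

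**Figure D2:**
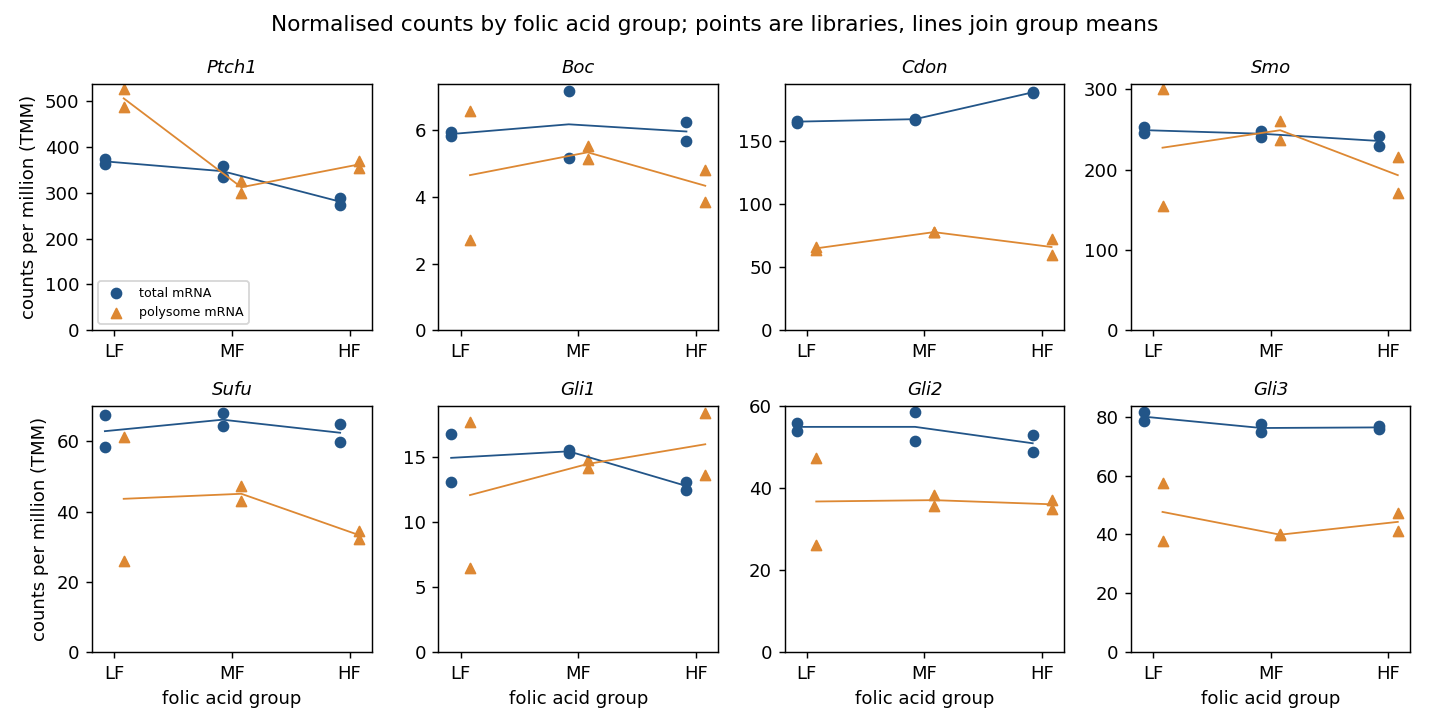
TMM-scaled CPM of the 8 tested members at LF, MF and HF, in total mRNA (circles) and polysome mRNA (triangles). Points are libraries and lines join the means of 2; the total mRNA of Ptch1 goes from 368 CPM at LF to 280 CPM at HF and that of Cdon from 166 to 189 CPM, while the polysome LF libraries of Sufu, Gli1, Smo and Boc lie on both sides of MF.

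The co-receptor gene Cdon moved opposite to Ptch1 in total mRNA, by less. Cdon had 164.63 and 166.41 CPM at LF, 167.12 and 167.85 CPM at MF, and 188.35 and 189.19 CPM at HF. The HF values were above all 4 others, and replicates lay within 2 CPM of each other. Cdon was 1.14-fold higher at HF than at LF (log2 change 0.19 ± 0.045, edgeR adjusted p = 0.0268), a fold below the limit of 1.2, so it was not called. With any of the 6 total libraries left out, the edgeR adjusted p of Cdon was between 0.0579 and 0.249. At HF against MF the log2 change of Cdon was 0.17 ± 0.045 with an edgeR adjusted p of 0.212.

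Gli1, the transcriptional target and amplifier of the pathway, had the largest log2 change after Ptch1 in both comparisons with HF. Its SE was larger than that of Cdon. Gli1 had 13.11 and 16.79 CPM at LF, 15.35 and 15.55 CPM at MF, and 12.49 and 13.09 CPM at HF. Both HF values were below the 4 others, the higher of them barely below the lower LF library. The log2 change of Gli1 was -0.27 ± 0.12 at HF against MF (edgeR adjusted p = 0.662) and -0.22 ± 0.12 at HF against LF (edgeR adjusted p = 0.474). The 95% interval at HF against MF ran from -0.52 to -0.02 before adjustment for the number of genes.

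The remaining members held closer to the reference. For Smo the log2 change at HF against MF was -0.05 ± 0.046, for Sufu -0.08 ± 0.07, for Gli2 -0.11 ± 0.07, for Gli3 0.00 ± 0.055 and for Boc -0.05 ± 0.17 (SE). The 95% intervals limit what could be missed, since they reached from -0.15 to 0.04 for Smo and from -0.11 to 0.12 for Gli3 but from -0.41 to 0.30 for Boc. At HF against LF the total libraries did not overlap for Smo, Gli2 and Gli3 either, with log2 changes of -0.08, -0.11 and -0.07 and edgeR adjusted p of 0.51, 0.575 and 0.696. The median log2 change over the 8 tested members was -0.07 at HF against MF, against 0.00 over all genes tested.

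**Figure D3:**
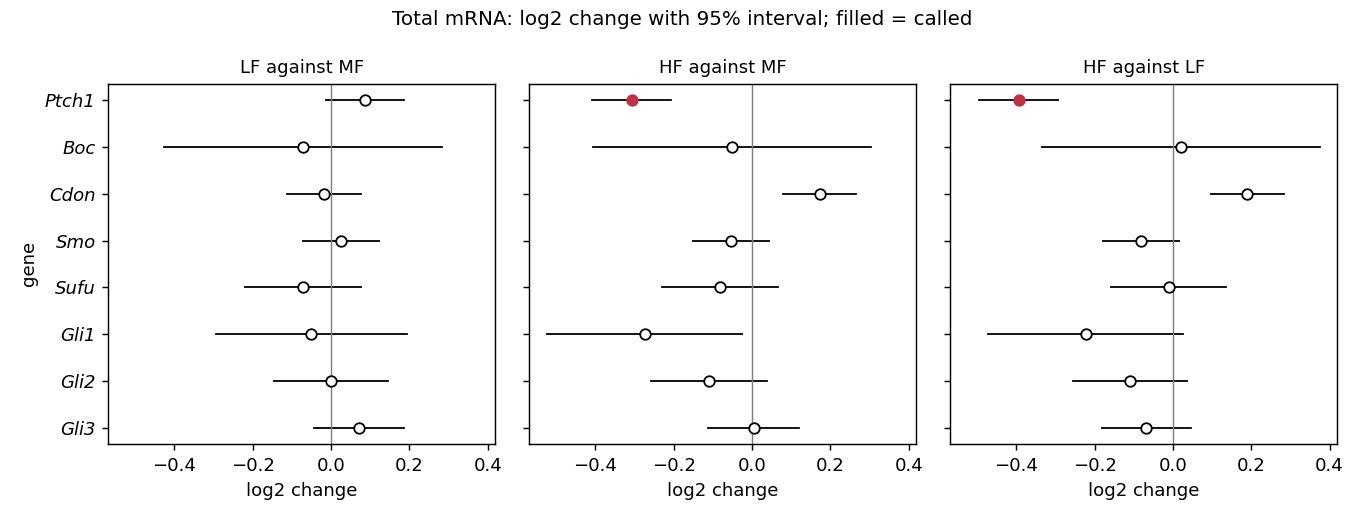
Log2 change of total mRNA for the 8 tested members, with its 95% interval, in LF against MF, HF against MF and HF against LF. Filled points were called; Ptch1 is called in both comparisons with HF (-0.31 and -0.39), and the interval of Boc is the widest.

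Mesenchymal and mural markers moved with Ptch1 across the total libraries. Their summed level was 1106.8 and 1214.4 CPM at LF, 1047.2 and 1105.0 CPM at MF, and 778.2 and 942.6 CPM at HF, and the 6 libraries had the same order by this sum as by Ptch1. Without Col1a2 the sum was 227.4 and 258.1 CPM at LF, 223.1 and 239.0 CPM at MF, and 165.4 and 197.6 CPM at HF, again lowest in both HF libraries. Of 17 markers listed, 12 were tested, and all 12 had negative values at HF against MF (median log2 change -0.38). None was called by edgeR, and 7 had an unadjusted p under 0.05, against 971 of all 13912 genes tested. Against LF, 4 of the 12 were called at HF, all lower; named after their values were seen, they were Pdgfrb, Lum, Tagln and Myl9. Abcc9 was at 0. Mesenchymal cells are known to express Ptch1. The study reported that every cell of its NSC culture stained for Nestin and for Sox2. Whether mesenchymal cells were present, and their part in the Ptch1 difference, was not tested here. Fewer cells of a type and less RNA per cell cannot be told apart in bulk samples. The summed NSC and astroglia markers were 5906.0 and 5813.5 CPM at LF, 6340.6 and 6195.6 CPM at MF, and 6970.7 and 6656.5 CPM at HF, the opposite order of groups. Of these 13 markers 8 had positive and 5 negative values at HF against MF, with a median log2 change of 0.01. In that comparison edgeR called 0 of them, with 5 at an unadjusted p under 0.05, against the same 971 of all genes. Against LF, 2 were called higher and 1 lower at HF. The other marker lists were smaller in total mRNA, with sums of 336.97 to 366.86 CPM for neurons and neuroblasts, 491.96 to 605.9 CPM for the oligodendrocyte lineage and at most 9.72 CPM for ependymal cells, 8.92 CPM for microglia and 6.54 CPM for endothelium.

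**Figure D4:**
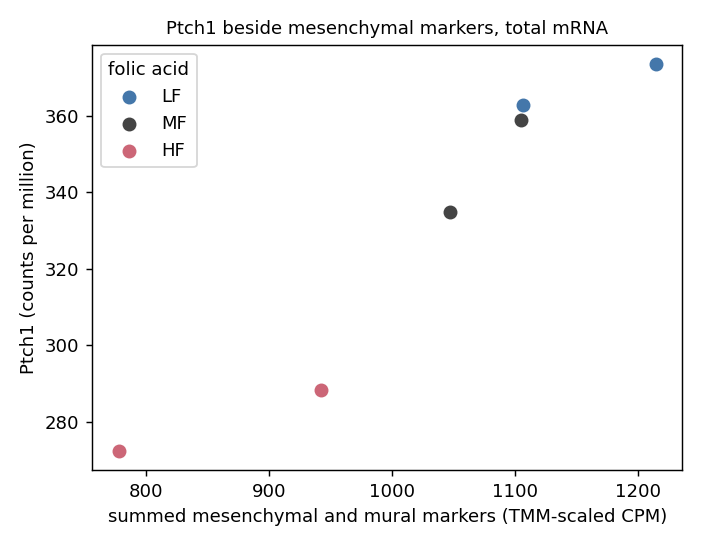
Ptch1 against the sum of mesenchymal and mural markers, both in TMM-scaled CPM, in the 6 total mRNA libraries, coloured by folic acid group. Both HF libraries lie lowest on both axes (Ptch1 272.37 and 288.39 CPM, markers 778.2 and 942.6 CPM) and an LF library lies highest on both.

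The 5 genes whose log2 CPM followed that of Ptch1 most closely over the 6 total libraries were Dcxr, Tenm4, Plxdc2, Peg3 and Asap1, among 9621 genes with a mean of at least 10 CPM. Their Pearson r with Ptch1 was 0.989 to 0.991, given as a description. In all, 118 genes had r above 0.95, and with 6 libraries in 3 groups r mostly follows the difference between groups.

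Outside the 9 members, the rest of the pathway was read from 5 lists. Here and below, list counts at an unadjusted p under 0.05 at HF against MF stand against 971 of all 13912 genes tested. Of the 6 tested genes for ligands and their release, edgeR called 0 at HF against MF, with 2 at an unadjusted p under 0.05. Dhh, the Desert hedgehog ligand, rose 1.38-fold at HF against LF in total mRNA (edgeR adjusted p = 0.00187). Dhh had 45.5 and 39.2 CPM at LF, 50.5 and 49.0 CPM at MF and 60.9 and 55.7 CPM at HF, without overlap and in the order of groups opposite to that of Ptch1. By TPM Dhh was the leading ligand transcript in total mRNA with a mean of 39.1, while Shh had 2.46 and Ihh 0.0733. In the polysome libraries Dhh had 49.4 and 28.5 CPM at LF, 53.1 and 60.3 CPM at MF and 39.6 and 36.8 CPM at HF. The change in its polysome share at HF against MF was -0.81 ± 0.31 on the log2 scale, with an edgeR adjusted p of 0.982.

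Of the other 6 tested receptor and co-receptor genes, 5 had negative values at HF against MF with a median log2 change of -0.29. None was called by edgeR, and 3 had an unadjusted p under 0.05. Gpc4, a glypican, had the smallest adjusted p there (log2 change -0.37 ± 0.12, edgeR adjusted p = 0.61). Gpc6, another glypican, fell 1.23-fold at HF against LF (edgeR adjusted p = 0.00706). Gas1, a co-receptor that binds Shh, was the most abundant of the list in total mRNA with 91.8 ± 3.42 TPM (SD, n = 6), more than Cdon or Boc.

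The lists downstream of the receptor had no call between concentrations in total mRNA. Of 15 tested genes of the primary cilium and of Smo and Gli traffic, 0 were called by edgeR at HF against MF, 1 had an unadjusted p under 0.05, and Ift88 had the smallest adjusted p (log2 change -0.22 ± 0.098, edgeR adjusted p = 0.681). Of 23 tested kinase and turnover genes 0 were called and 0 had an unadjusted p under 0.05, with Cul3 first (log2 change 0.10 ± 0.054, edgeR adjusted p = 0.776). Of 9 tested textbook Gli target genes other than the members 0 were called and 4 had an unadjusted p under 0.05, with Mycn first (log2 change -0.28 ± 0.098, edgeR adjusted p = 0.478). Foxa2 and Nkx2-1, ventral targets of strong signaling, were at 0 in all total libraries. Nkx2-2 of the same list was detected in each, with a mean of 1.81 TPM and values from 1.41 to 2.65. Ccnd1, a cyclin gene that Gli factors can induce, was 1.15-fold higher at HF than at LF (edgeR adjusted p = 0.0246), the opposite direction to Ptch1 and below the fold limit of 1.2.

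In polysome mRNA no member was called between concentrations, and Ptch1 came nearest. Ptch1 had 486.17 and 525.24 CPM at LF, 324.54 and 299.18 CPM at MF, and 368.94 and 354.37 CPM at HF. Its order was LF, HF, MF, without overlap, so MF was lowest on polysomes while HF was lowest in total mRNA. The log2 change of polysome Ptch1 was 0.70 ± 0.16 at LF against MF (edgeR adjusted p = 0.154), 0.21 ± 0.16 at HF against MF (edgeR adjusted p = 0.948) and -0.48 ± 0.16 at HF against LF (edgeR adjusted p = 0.269). The count of members called was 0 of 8 in each, against 0.0223%, 0% and 0.0149% of all 13433 genes tested in that order. At an unadjusted p under 0.05 the edgeR test had 1, 0 and 1 member, Ptch1 in both cases, against 2324, 453 and 1882 of the 13433 genes. DESeq2 and limma voom called 0 members in each. The polysome LF libraries lay far apart for several members, and the 95% interval at LF against MF ran from -0.90 to 0.81 for Sufu and from -1.29 to 0.77 for Gli1, against 0.32 to 1.07 for Ptch1. With polysome LF replicate 2 left out, the log2 change of Ptch1 at LF against MF was 0.64 with an edgeR adjusted p of 0.0178, and with polysome LF replicate 1 left out it was 0.78 with an edgeR adjusted p of 0.000542. In these fits LF had a lone polysome library, assumed to vary like the other groups.

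For Smo, Boc, Sufu, Gli1, Gli2 and Gli3 the polysome LF libraries lay on both sides of the MF values. With polysome LF replicate 1 left out, the log2 change at LF against MF was positive for Ptch1 and Gli3. It was negative for Smo, Boc, Sufu, Gli1 and Gli2. Over all fits with a library left out, the log2 change ran from -0.66 to 0.27 for Smo and from -0.77 to 0.44 for Sufu. For Gli1 it ran from -1.14 to 0.29, while for Ptch1 it stayed between 0.63 and 0.78. Polysome Gli1, for example, had 17.71 and 6.47 CPM at LF and 14.8 and 14.16 CPM at MF.

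Translation efficiency (TE) is polysome divided by total mRNA, and the test compared it between concentrations. The TE of Ptch1 was higher at LF and at HF than at MF in the estimates, and neither was called. The log2 difference of Ptch1 was 0.62 ± 0.15 at LF against MF (95% interval 0.28 to 0.96, edgeR adjusted p = 0.133) and 0.51 ± 0.15 at HF against MF (95% interval 0.18 to 0.85, edgeR adjusted p = 0.982). At HF against LF it was -0.10 ± 0.15 (edgeR adjusted p = 0.822). No other member had an unadjusted p under 0.05 at LF against MF, and at HF against MF Cdon had one (log2 difference -0.42 ± 0.18, edgeR adjusted p = 0.982), in the direction opposite to Ptch1. The members called were 0 of 8 at LF against MF, 0 of 8 at HF against MF and 0 of 8 at HF against LF, against 0.236%, 0% and 0.0971% of all 14421 genes tested. The unadjusted p was under 0.05 for 1, 2 and 0 members, against 2277, 599 and 2114 of all genes tested. DESeq2 called the TE of Ptch1 at LF against MF (adjusted p = 0.0116), and limma voom called none.

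The call on the TE of Ptch1 depended on the polysome LF libraries, which share in the estimate of the spread also where LF is not compared. With polysome LF replicate 2 left out, the TE of Ptch1 was called at LF against MF (log2 difference 0.55, edgeR adjusted p = 0.0198) and at HF against MF (0.52, edgeR adjusted p = 0.0286). With polysome LF replicate 1 left out it was also called in both, with edgeR adjusted p of 0.000456 and 0.0272. With all LF libraries left out, the log2 difference at HF against MF was 0.52 with an edgeR adjusted p of 0.0547. In polysome mRNA the summed mesenchymal and mural markers were 1414.9 and 988.0 CPM at LF and 1337.2 and 1260.4 CPM at MF. At HF the sum was 1452.9 and 1710.7 CPM, so it, too, was higher on polysomes and lower in total mRNA than at MF. Of the 12 tested markers, 8 were higher and 4 lower in polysome mRNA at HF against MF. For TE at LF against MF, 8 of the 12 had negative values (median log2 difference -0.25), the direction opposite to Ptch1. The part of these markers in the TE of Ptch1 was not tested.

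Polysome against total mRNA within a concentration compares the share of each member in heavy polysomes with its share in total mRNA. The polysomes came from the supernatant of a centrifuged lysate, so the ratio need not measure ribosome loading alone. Each member was tested on its own, and the ratios of different members were not tested against each other. Over the 3 concentrations Ptch1 was 1.25-fold higher in polysome than in total mRNA, and Cdon, Gli3, Sufu and Gli2 were lower. Since both fractions are scaled to their own totals, a value is relative to the other mRNAs of the fraction. The log2 ratio was 0.33 ± 0.062 for Ptch1 (SE, 6 libraries against 6, edgeR adjusted p = 0.000719). It was -1.22 ± 0.072 for Cdon (edgeR adjusted p = 1.73e-07), which is 2.33-fold lower and the largest difference among the members. It was -0.72 ± 0.11 for Gli3 (edgeR adjusted p = 0.000115), -0.56 ± 0.17 for Sufu (edgeR adjusted p = 0.0125) and -0.44 ± 0.13 for Gli2 (edgeR adjusted p = 0.00973). It was -0.03 ± 0.14 for Smo, 0.08 ± 0.21 for Gli1 and -0.23 ± 0.2 for Boc, none of them called. Thus 5 of 8 members were called, against 71% of all genes, a share near the background. Among all genes tested, 18.3% had a lower ratio than Cdon and 66.6% a lower ratio than Ptch1.

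Cdon was called at all 3, with log2 ratios of -1.24 ± 0.13 at LF, -1.0 ± 0.12 at MF and -1.42 ± 0.13 at HF, and its polysome values of 59.3 to 78.1 CPM lay far below its total values of 164.6 to 189.2 CPM. Ptch1 was called at LF (log2 ratio 0.57 ± 0.11, edgeR adjusted p = 0.0014) and HF (0.46 ± 0.11, edgeR adjusted p = 0.0042) and had a log2 ratio of -0.05 ± 0.11 at MF. Gli3 was called at all 3, with -0.64 ± 0.18, -0.83 ± 0.18 and -0.69 ± 0.18. Sufu was called at HF only (-0.81 ± 0.3, edgeR adjusted p = 0.0387), with -0.42 ± 0.29 at LF and -0.45 ± 0.29 at MF, and the difference between these was not called (edgeR adjusted p = 0.982 at HF against MF). The members called were 3 of 8 at LF, 2 of 8 at MF and 4 of 8 at HF, against 53.6%, 55.2% and 56.4% of all genes. Without the LF libraries in the fit, 4 members were called at MF and 6 at HF, with Sufu and Gli2 added at MF and Gli1 (log2 ratio 0.50, higher on polysomes) and Gli2 added at HF. The shares of all genes called without the LF libraries are not reported here, so these counts have nothing to be set against. At LF tested alone only Cdon was called, with an edgeR adjusted p of 0.07 for Ptch1 and 0.15 for Gli3.

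**Figure D5:**
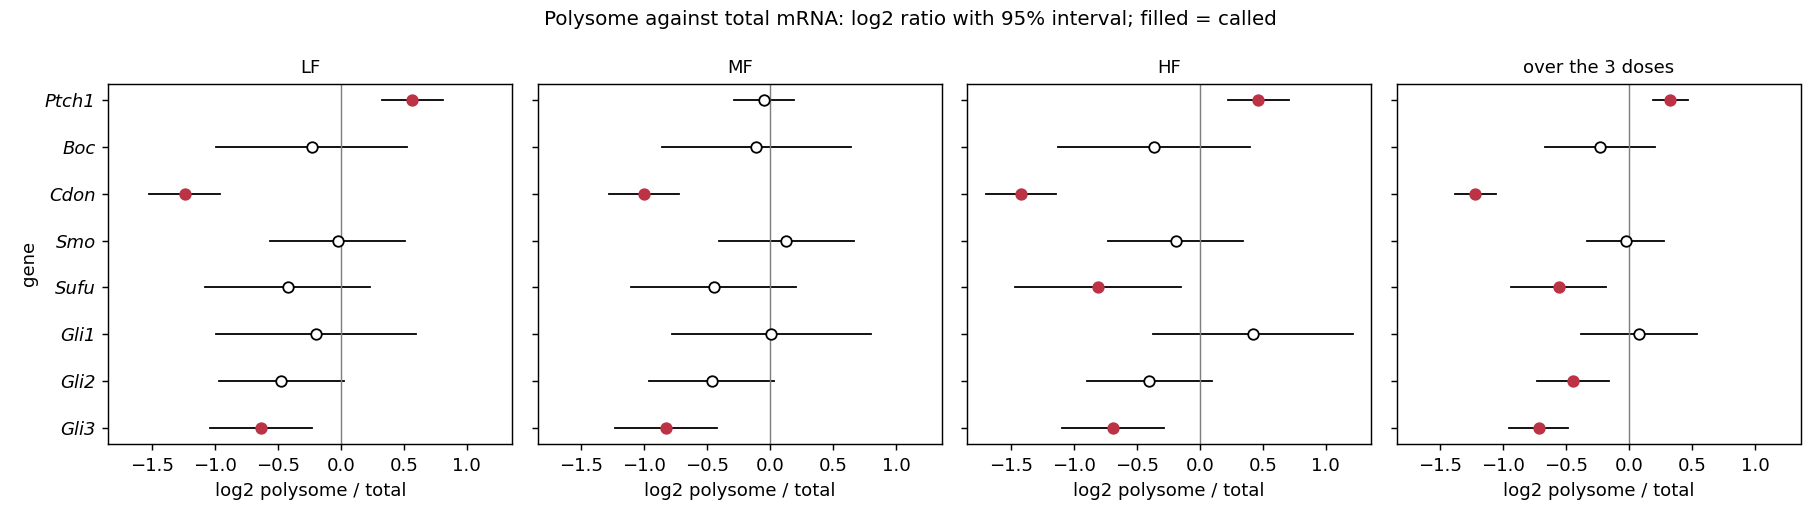
Log2 ratio of polysome to total mRNA for the 8 tested members with its 95% interval, at LF, MF, HF and over the 3 concentrations. Filled points were called; Cdon (-1.22 over the concentrations) and Gli3 (-0.72) lie left of 0 in each panel, Ptch1 lies right of 0 at LF and HF and at 0 at MF, and the wide intervals of Boc, Sufu and Gli1 include the spread of the polysome LF libraries.

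Of the 3 Gli genes, which share their zinc finger domain, Gli2 and Gli3 were called lower in polysome mRNA and Gli1 was not called. The 95% interval of the log2 ratio over the concentrations was -0.73 to -0.16 for Gli2, -0.95 to -0.48 for Gli3 and -0.38 to 0.53 for Gli1. On a CPM scale set over all 12 libraries Gli1 had means of 13.9 CPM in total mRNA and 14.7 CPM in polysome mRNA. The TPM of Gli3 was 2.05 to 2.73 times that of Gli1 in total libraries and 0.919 to 3.81 times in polysome libraries, the largest value being polysome LF replicate 2. Gli1 and Gli3 share 62 to 265 exonic bases with antisense genes, out of 4995 for Gli1 and 9589 for Gli3. The libraries were stranded, but the sources used here do not give the strand setting of the counting. Reads within the shared bases may therefore not have been told apart. Arhgap9, opposite Gli1, had 0 to 5 counts and Gm6556, opposite Gli3, had 2 to 21 counts. Gm47200, which shares 265 exonic bases with Gli1, was not among the genes counted, so its level is unknown.

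In the rest of the pathway the ratio over the 3 concentrations fell on both sides. Of 15 cilium and traffic genes 2 were higher (Tulp3 and Ift27) and 10 were lower (Dync2h1, Kif3a, Ift80, Arl13b, Gpr161, Ift172, Ift88, Tctn1, Iqce and Kif7) in polysome mRNA, with a median log2 ratio of -0.47 against -0.09 over all genes. Dync2h1, the motor that carries cargo back from the tip of the cilium, was 4.96-fold lower (edgeR adjusted p = 5.01e-08). Kif7, which organizes Gli proteins at that tip, was 1.59-fold lower (edgeR adjusted p = 0.0301). Of 23 kinase and turnover genes 3 were higher (Fbxw11, Csnk1d and Prkar1a) and 9 lower, among them Numb, Dyrk2, Mosmo, Gsk3b, Stk36, Cul3, Itch and Cul1. Of 6 ligand and release genes Shh was 1.98-fold higher (edgeR adjusted p = 4.03e-05) and Scube3, which helps release lipidated ligand, 1.59-fold lower (edgeR adjusted p = 0.00484). Of the other 6 receptor genes Gpc4 was 3.98-fold higher (edgeR adjusted p = 3.04e-08) and Gpc3 3.81-fold higher, and Lrp2 and Gpc6 were lower. Of 10 Gli target genes Mycn and Foxf2 were higher and Bmi1, Ccnd2 and Foxm1 lower. These counts, too, stand against 71% of all genes called.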

How the data were processed

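Each of the 12 libraries had 1 gene table. According to the labels and methods, the authors trimmed read pairs, aligned them with Bowtie2 2.2.9 to mm10 and assigned them to genes with RSEM 1.3.0. The expected counts deposited by the authors divide ambiguous pairs by likelihood, and need not be whole. The TPM deposited by the authors is scaled by effective length, a further column. The sources used here do not give the strand setting.

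Symbols and positions came from GENCODE M21 (GRCm38, the same build), and promoters from RefSeq GRCm38.p6. Expected counts were rounded and tested with edgeR 4.0.16 in R 4.3.3 (TMM, filterByExpr, robust quasi-likelihood F test) on all genes, with Benjamini-Hochberg adjustment over all genes tested. Total mRNA (13912 genes) and polysome mRNA (13433 genes) were fitted on 6 libraries each, and TE and polysome against total mRNA on all 12 (14421 genes). The doses shared 1 estimate of the spread. The study's thresholds defined a call, a fold change larger than 1.2 with an adjusted p below 0.05. The study's tools were DESeq2 and Xtail; Xtail was not used here. DESeq2 1.42.0, limma voom 3.58.1, RLE scaling, no filter, the compared libraries alone, a replicate block and leaving out each library were alternatives. The method was tested on simulated counts.

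The members, the pathway and marker lists and the tests were chosen with earlier results of these data known. All 9 members are named; of the pathway lists the genes called, except some that are not reported here, or the gene with the smallest adjusted p; for likeness, the 5 genes with the highest Pearson r to Ptch1. Depths were 20506797 to 28170296 counts per library. No molecular identifiers were used, and counting error is thus the least possible error. Chi-square over degrees of freedom between replicates was 2.78 to 143, so no pair was a duplicate deposit. Deviations of same-numbered libraries correlated between -0.11 and 0.0936, which gave no sign that the numbers pair libraries. Such correlations cannot exclude a shared source, since a larger spread between libraries could hide it.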

Additional observations from a re-analysis of the deposited data

How the results depend on the processing

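Of 616 values of a member in a comparison under DESeq2, limma voom, RLE scaling, no filter on low counts, the replicate block or the compared libraries alone, 5 passed the threshold in addition, 3 no longer passed and the rest stayed on their side. A direction was read only from values larger than their SE with all libraries, and none of these changed sign, while 19 smaller ones did. The replicate block changed the number of members called in no comparison, for example 1 at HF against MF and 5 for the polysome to total ratio over all doses. DESeq2 called 1 member in TE at LF against MF. With the compared libraries alone, polysome against total mRNA had 1 member at LF and 4 at MF. With a library left out, the members called ranged from 0 to 1 in total mRNA at HF against MF, from 0 to 7 in polysome mRNA at LF against MF and from 0 to 2 at HF against LF, from 0 to 7 in TE at LF against MF, from 0 to 1 at HF against MF and from 0 to 2 at HF against LF, and for polysome against total mRNA from 2 to 8 at LF, from 2 to 4 at MF and from 2 to 6 at HF. All extremes above the reported counts came without a polysome LF library, and the 2 at HF came without polysome HF replicate 1. The shares of all genes called in these refits are not reported here, so the ranges are no result about the members. Of 960 values with a library left out, 67 changed sign, of which 63 were no larger than their SE with all libraries. Of these 63, 2 were then called, Sufu in TE at LF against MF (log2 difference from 0.03 to -0.71 without polysome LF replicate 1, edgeR adjusted p = 0.00217) and Smo in polysome against total mRNA at LF (from -0.02 to 0.37 without polysome LF replicate 2, edgeR adjusted p = 0.0122). The other 4 had a direction that turned. Sufu in total mRNA at LF against MF ran from -0.18 to 0.026, with the sign turned without total LF replicate 1. Sufu in polysome mRNA at HF against LF ran from -0.88 to 0.33, turned without polysome LF replicate 1. Gli3 in polysome mRNA at LF against MF ran from -0.078 to 0.55 and the polysome against total ratio of Sufu at LF from -1.11 to 0.068, both turned without polysome LF replicate 2. None of these 4 was called with all libraries. By CPM per kilobase Gli3 took place 5 and Gli2 place 6 in total mRNA. With 2 libraries per group and 107 to 153 counts, the 95% interval of Boc in total mRNA at HF against MF ran from -0.41 to 0.30, so a change of that size was not detectable.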
